A study of Mus musculus with 12 samples.

Results

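The TGF-β ligands Tgfb1, Tgfb2 and Tgfb3, their receptors Tgfbr1, Tgfbr2 and Tgfbr3, and the latent TGF-β binding proteins Ltbp1, Ltbp2, Ltbp3 and Ltbp4 were followed in mouse femoral head cartilage cultured without treatment or after addition of IL-1α or retinoic acid. The 10 genes were taken by their array symbol, out of 34509 symbols, and 30 of the 46632 probes on the array carried one of those symbols. Cartilage came from 21-day-old TS-4/5∆cat mice, which lack the catalytic domains of both ADAMTS-4 and ADAMTS-5, the main aggrecan-cleaving proteinases of cartilage, so the untreated controls carried these deletions too. Explants were kept for 24 h in medium with 10% serum, 4 hips to a well, and were then left untreated or given IL-1α at 10 ng/ml or retinoic acid at 10 µM for 3 days. RNA of each treatment was hybridised to 4 bead arrays, 2 in batch 1 (strain or background named Donut) and 2 in batch 2 (Gertrude), so that batch and mouse line cannot be told apart. The study's methods describe serum-free culture and 3 unpooled mice for a treatment, unlike the labels and their 4 arrays per treatment. Whether an array holds 1 animal or several is therefore not settled. The p-values measure only the spread between these arrays, which may be technical.

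TGF-β is secreted in an inactive form, held by its own propeptide, and in most tissues the propeptide is bound to a latent TGF-β binding protein that stores the complex in the matrix. Once released, the ligand binds the type II receptor, which recruits and activates the type I receptor, and the type I receptor then phosphorylates SMAD2 and SMAD3. The type III receptor, betaglycan, is a co-receptor that presents ligand, TGF-β2 above all. In cartilage this pathway is known for holding back chondrocyte hypertrophy and for supporting matrix production.

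The arrays divided first by batch. Pearson correlations between arrays of the same treatment and batch were 0.983 to 0.995, those between treatments within a batch were 0.932 to 0.968, and those between batches for the same treatment were 0.868 to 0.902. Both treatments left their known marks. Cyp26b1, which breaks down retinoic acid, was 3.94 higher on the log2 scale with retinoic acid than untreated (adjusted p = 6.074e-10), a difference limited from above because 1 retinoic acid array, at 14.24, was at the top of the normalized scale, and Nos2, an IL-1 target, was detected on all 4 IL-1α arrays and on 0 of the other 8. Of 9 measured chondrocyte markers, 9 were lower with retinoic acid and 7 with IL-1α than untreated. Their summed level on the linear scale lay between 64100 and 78200 on untreated arrays, between 36000 and 49100 with IL-1α and between 10400 and 16200 with retinoic acid. Of 6 measured macrophage markers, 5 were higher with retinoic acid, and with IL-1α 2 were higher and 3 lower. Of 6 measured endothelial markers, 1 was higher with retinoic acid and 3 were lower with IL-1α, and retinoic acid exceeded IL-1α in 4. Of 5 synovial and fibroblast markers, 2 were higher and 2 lower with retinoic acid and 4 lower with IL-1α, and of 6 neutrophil markers 4 were lower with retinoic acid and 0 changed with IL-1α. Of 2 tested osteoclast markers, 2 were higher with retinoic acid and 1 with IL-1α. Over all genes, 36.7% changed with retinoic acid and 30.2% with IL-1α against untreated, and 32.5% differed between the treatments. Lymphocyte, muscle and fat markers were mostly undetected, with Cd3e, Cd3g and Cd3d at 0 arrays. In RNA from whole explants, fewer cells of a type and less RNA per cell cannot be told apart, and the part that these marker changes play in the results below was not tested.

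The promoters of 3 of the genes are shown because they changed with treatment and because their annotated start lies at the edge of the gene, so that the window holds no transcribed base of it. The sequences are the 250 bases before the start, from RefSeq on GRCm38.p6, 5′ to 3′ on the strand of the gene. Tgfbr1 lies on the + strand with its window at chr4:47352972-47353221, Tgfbr2 on the − strand at chr9:116175364-116175613, and Ltbp3 on the + strand at chr19:5740650-5740899. Capitals mark matches to the motifs searched.
Tgfbr1: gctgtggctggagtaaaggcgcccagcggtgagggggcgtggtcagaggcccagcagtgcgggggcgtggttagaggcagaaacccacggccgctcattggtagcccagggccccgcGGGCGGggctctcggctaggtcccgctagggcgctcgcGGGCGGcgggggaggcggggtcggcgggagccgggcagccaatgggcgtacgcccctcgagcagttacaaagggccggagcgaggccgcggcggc
Tgfbr2: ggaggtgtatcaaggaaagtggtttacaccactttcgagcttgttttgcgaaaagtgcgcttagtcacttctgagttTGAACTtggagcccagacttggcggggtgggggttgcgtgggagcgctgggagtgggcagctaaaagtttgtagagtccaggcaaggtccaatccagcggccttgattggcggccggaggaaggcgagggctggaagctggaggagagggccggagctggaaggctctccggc
Ltbp3: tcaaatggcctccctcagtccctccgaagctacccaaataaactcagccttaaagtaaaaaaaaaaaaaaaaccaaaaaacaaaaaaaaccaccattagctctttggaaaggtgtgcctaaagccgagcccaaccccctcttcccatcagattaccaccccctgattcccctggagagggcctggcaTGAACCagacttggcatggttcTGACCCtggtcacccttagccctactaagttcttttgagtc
Both strands were searched for the retinoid half-site (AGGTCA and, as variants of it, GGGTCA, then AGTTCA and then GGTTCA), the AP-1 site (TGACTCA), the GC box (GGGCGG), a SMAD-binding element (CAGACA) and the TATA box (TATAAA or TATATA). The NF-kappa-B site was searched on both strands too, by a degenerate form of its sequence. The Ltbp3 window held 2 retinoid half-sites on the reverse strand, GGTTCA at 63 to 58 bases and GGGTCA at 41 to 36 bases before the start. Tgfbr2 held 1 half-site, AGTTCA on the reverse strand at 173 to 168 bases. Tgfbr1 held 2 GC boxes, at 133 to 128 and at 95 to 90 bases, and no half-site. Of 32851 promoter windows of this length, 38.6% held a retinoid half-site, 32.7% a GC box, 17.1% the SMAD element, 15.6% a TATA box, 4.46% an AP-1 site and 3.9% an NF-kappa-B site. Windows were at hand for 8 of the 10 genes, 12 windows in all, and none held an AP-1 or NF-kappa-B match.

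Values are log2 intensities after background correction and quantile normalization, and a gene counts as detected on an array where its detection p was under 0.05. That p is 1 less the deposited value, which is headed as a p-value but rose with intensity. Of the 30 probes, 18 were detected on at least 4 of the 12 arrays and were tested, and every one of the 10 genes had at least 1 such probe. The other 12 were 6 probes of Ltbp1, 2 of Ltbp2, 2 of Tgfbr2, 1 of Tgfbr1 and 1 of Ltbp4, of which all but the Ltbp4 probe were detected on 0 arrays. A gene is given by its brightest tested probe, and levels of different probes were not compared.

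Retinoic acid and IL-1α each changed 5 of the 10 genes, and the largest changes were in different binding proteins. With retinoic acid, Ltbp3 rose 2.45-fold, Tgfb2 and Tgfbr1 rose 1.44-fold each, and Tgfbr2 and Ltbp4 fell. With IL-1α, Ltbp2 rose 2.85-fold and Tgfb2 1.40-fold, and Tgfb3, Tgfbr2 and Ltbp4 fell. The second tested Tgfbr2 probe did not share that fall, at 0.64 on the log2 scale (adjusted p = 0.1587). Between the treatments 4 genes differed: Tgfb3, Tgfbr1 and Ltbp3 were higher and Ltbp2 was lower with retinoic acid than with IL-1α.

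Those counts are set against a background in which much of the array moved. Of 14317 genes tested with limma at an adjusted p under 0.05, retinoic acid changed 36.7% against untreated (18.6% higher and 18.1% lower), beside 5 of 10 here. IL-1α changed 30.2% (15.1% higher and 15.0% lower), again beside 5 of 10, and the treatments differed from each other in 32.5% (16.1% higher and 16.4% lower with retinoic acid), beside 4 of 10. The median change of the 10 genes was 0.04 with retinoic acid and -0.06 with IL-1α on the log2 scale, and over all genes it was 0.01 in both. The median size of change, without sign, was 0.40 with retinoic acid and 0.34 with IL-1α for the 10 genes, and 0.28 and 0.25 over all genes. Both comparisons use the same untreated arrays. The 4 arrays of a treatment did not overlap the 4 untreated arrays in 3 of 10 genes for retinoic acid, beside 18.0% of all genes, and in 3 of 10 for IL-1α, beside 14.3%. Between retinoic acid and IL-1α they did not overlap in 3 of 10, beside 18.9%.

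**Figure D1:**
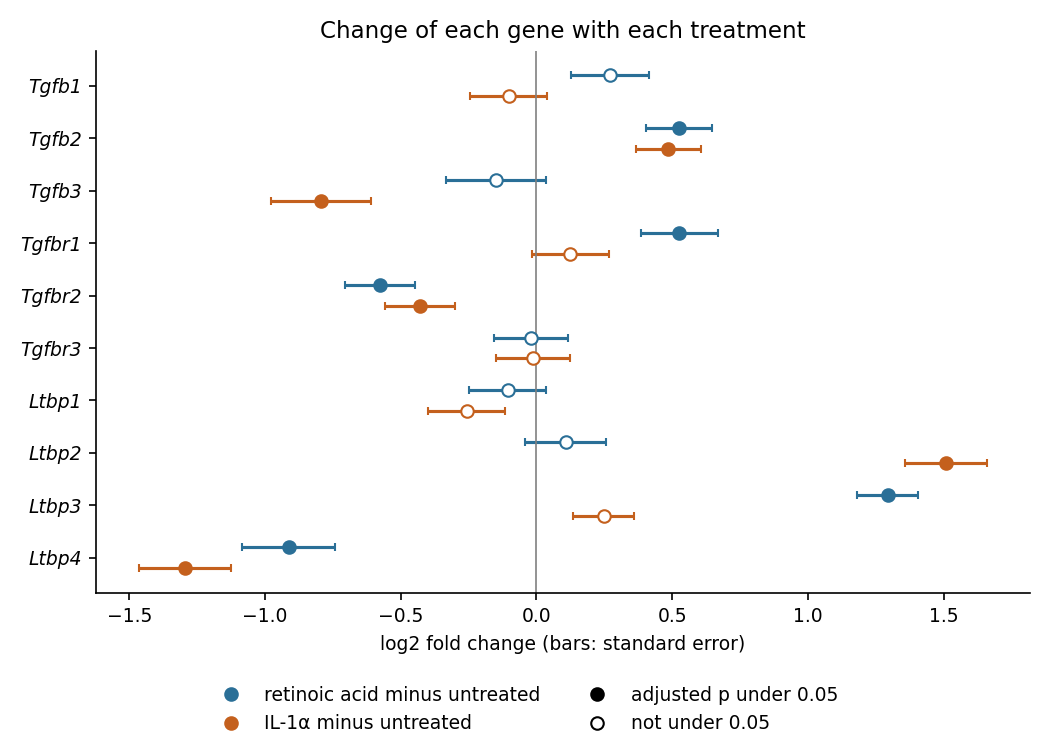
Log2 fold change of each gene against untreated, with bars for the standard error, for retinoic acid (blue) and IL-1α (orange), filled where the adjusted p was under 0.05. Ltbp3 stands at 1.29 with retinoic acid and Ltbp2 at 1.51 with IL-1α, and Ltbp4 is below 0 with both.

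Among the ligands, Tgfb2 rose with both treatments. Array values are given below in the order batch 1, batch 1, batch 2, batch 2. On its brighter probe (ILMN_1225196) the untreated arrays read 6.65, 6.77, 8.98 and 8.73, those with IL-1α 7.33, 7.24, 9.46 and 9.05, and the retinoic acid arrays 7.26, 7.20, 9.33 and 9.44. Within each batch every treated array was above both untreated arrays, but over both batches the groups overlapped, and batch 2 lay 2.09 above batch 1 on this probe. The change was 0.53 with retinoic acid (SE 0.12, adjusted p = 0.004028) and 0.49 with IL-1α (SE 0.12, adjusted p = 0.009036). Within batch 1 and batch 2 these changes were 0.52 and 0.53 with retinoic acid, and 0.57 and 0.40 with IL-1α. In a fit of batch 2 alone the IL-1α change did not pass (adjusted p = 0.149). The IL-1α call on this probe was lost on scaling to one median. The exact permutation test, which takes no account of batch, gave p = 0.5143 for each, where the smallest p it allows with 4 arrays against 4 is 0.02857.

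The second Tgfb2 probe (ILMN_1241099) showed the rise without the batch shift. It read 6.73, 6.56, 6.57 and 6.54 untreated, 7.51, 7.12, 7.07 and 7.22 with IL-1α, and 7.45, 7.52, 6.97 and 7.34 with retinoic acid. Every treated array was above every untreated array. The change was 0.72 with retinoic acid (SE 0.124, adjusted p = 0.0005348) and 0.63 with IL-1α (SE 0.124, adjusted p = 0.002223), with an exact permutation p of 0.02857 for each. Retinoic acid and IL-1α differed by 0.09 on this probe and by 0.04 on the brighter one, with 95% intervals of -0.18 to 0.36 and -0.22 to 0.30.

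Tgfb3 fell with IL-1α. The untreated arrays read 9.24, 9.48, 9.31 and 8.75, those with IL-1α 8.68, 8.72, 8.04 and 8.16, and the retinoic acid arrays 8.88, 8.94, 9.03 and 9.32. All IL-1α arrays were below all others. The change with IL-1α was -0.79 (SE 0.184, adjusted p = 0.006287, exact permutation p = 0.02857), or -0.66 in batch 1 and -0.93 in batch 2. Scaling to one median instead of quantile normalization took its adjusted p to 0.07846. With retinoic acid it was -0.15 (SE 0.184, adjusted p = 0.5715), made of -0.45 in batch 1 (adjusted p = 0.02744 in a fit of that batch alone) and 0.15 in batch 2. Retinoic acid exceeded IL-1α by 0.64 (SE 0.184, adjusted p = 0.01726), by 0.21 in batch 1 (adjusted p = 0.238 in a fit of that batch alone) and by 1.08 in batch 2. The call over both batches was lost without any 1 of the 4 treated arrays of batch 2.

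Tgfb1, the most studied ligand, did not pass the test in any of the 3 comparisons over both batches. It read 9.90, 10.12, 7.96 and 8.46 untreated, 9.84, 9.69, 8.27 and 8.23 with IL-1α, and 10.52, 10.23, 8.28 and 8.49 with retinoic acid. The batches stood apart, with a mean of 10.05 in batch 1 and 8.28 in batch 2. The change was 0.27 with retinoic acid (95% interval -0.04 to 0.58, adjusted p = 0.1645) and -0.10 with IL-1α (95% interval -0.41 to 0.21, adjusted p = 0.6288). Retinoic acid lay 0.37 above IL-1α (95% interval 0.06 to 0.68, adjusted p = 0.06475), by 0.61 in batch 1 and by 0.14 in batch 2. That difference passed in a fit of batch 1 alone (adjusted p = 0.02007), and over both batches without background correction, with an offset of 50, with detection asked on all 12 arrays, or without IL-1α replicate 1 of batch 2 (lowest adjusted p 0.02216).

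**Figure D2:**
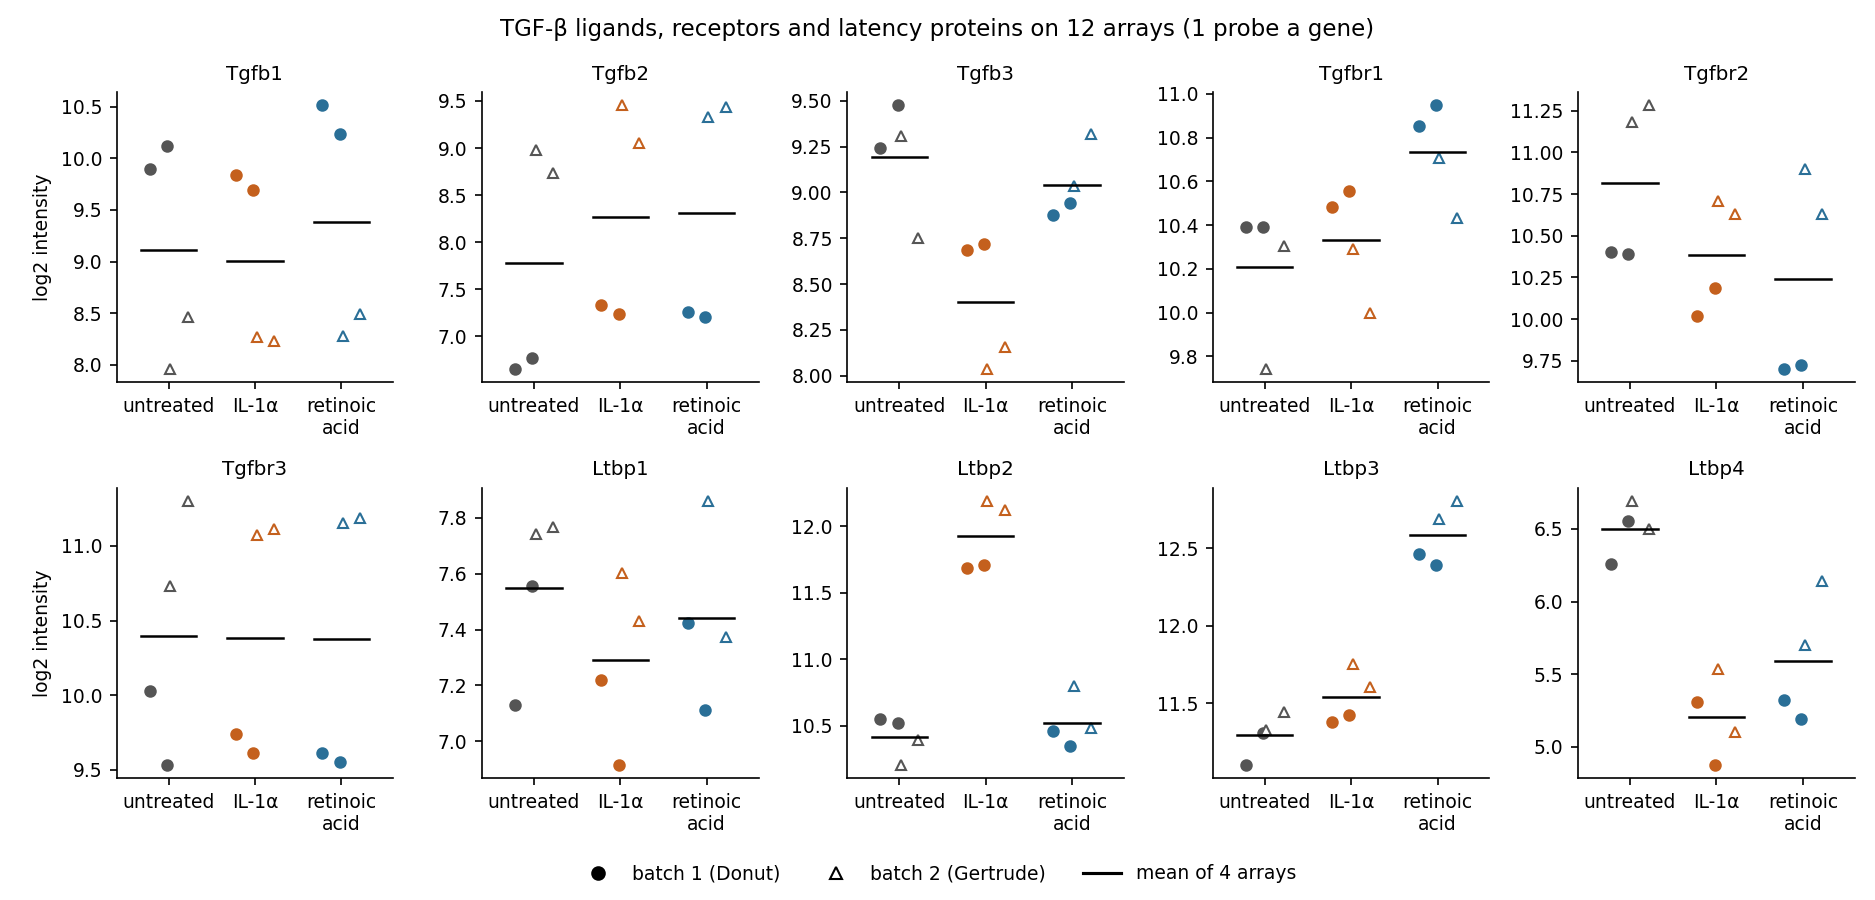
Log2 intensity of each gene (brightest tested probe) on the 12 arrays by treatment, batch 1 as filled circles, batch 2 as open triangles, and the mean of 4 arrays as a line, with a separate vertical scale in each panel. The 4 IL-1α arrays of Ltbp2 and the 4 retinoic acid arrays of Ltbp3 lie above all others, while Tgfb1, Tgfb2, Tgfbr2 and Tgfbr3 divide by batch.

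Of the receptors, Tgfbr1, the type I kinase, rose with retinoic acid. It read 10.39, 10.39, 9.74 and 10.30 untreated, 10.48, 10.56, 10.29 and 10.00 with IL-1α, and 10.85, 10.95, 10.71 and 10.43 with retinoic acid. The retinoic acid arrays were all above the untreated arrays, the nearest pair being 10.43 and 10.39. The change was 0.53 (SE 0.141, adjusted p = 0.01055, exact permutation p = 0.02857), or 0.51 in batch 1 and 0.54 in batch 2. In a fit of batch 2 alone this change did not pass (adjusted p = 0.09538). With IL-1α it was 0.13 (95% interval -0.18 to 0.43, adjusted p = 0.5413). Retinoic acid exceeded IL-1α by 0.40 (SE 0.141, adjusted p = 0.04549), a call that 4 of the 12 fits leaving out 1 array kept. It was lost without any 1 of the 6 arrays of batch 1, and without IL-1α replicate 2 or retinoic acid replicate 1 of batch 2. It was also lost in a fit of batch 2 alone (adjusted p = 0.2017). A dim second probe (ILMN_2708966, detected on 4 arrays) changed by 0.28 with retinoic acid (adjusted p = 0.1409).

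Tgfbr2, the type II receptor that binds ligand first, fell with both treatments. On the brighter probe (ILMN_2760979) the untreated arrays read 10.40, 10.39, 11.18 and 11.28, those with IL-1α 10.02, 10.19, 10.71 and 10.63, and the retinoic acid arrays 9.70, 9.72, 10.90 and 10.63. In each batch all treated arrays were below both untreated arrays, and batch 2 lay 0.82 above batch 1. The change was -0.58 with retinoic acid (SE 0.129, adjusted p = 0.00359) and -0.43 with IL-1α (SE 0.129, adjusted p = 0.0245), calls that were both lost when arrays were scaled to one median instead. The exact permutation p was 0.1714 and 0.2286. Within batches the change was -0.69 and -0.47 with retinoic acid and -0.30 and -0.56 with IL-1α. In fits of a single batch it did not pass with retinoic acid in batch 2 (adjusted p = 0.0545) or with IL-1α in batch 1 (adjusted p = 0.09573). The IL-1α call was kept in 7 of the 12 fits that left out 1 array, and was lost without untreated replicate 1 or 2 of batch 1, untreated replicate 2 of batch 2, or IL-1α replicate 1 or 2 of batch 2.

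The second Tgfbr2 probe (ILMN_1242086) did not follow the first with IL-1α. It read 5.58, 5.87, 7.20 and 6.72 untreated, 7.51, 7.26, 6.77 and 6.40 with IL-1α, and 5.37, 5.16, 6.23 and 6.07 with retinoic acid. With IL-1α it was 1.66 above untreated in batch 1 and 0.37 below in batch 2. That difference between batches was 2.03 in size (SE 0.27, adjusted p = 0.0008522). Over both batches the change was 0.64 (SE 0.327, adjusted p = 0.1587). With retinoic acid the probe lay -0.64 from untreated (SE 0.327, adjusted p = 0.1531), with -0.46 in batch 1 and -0.81 in batch 2, the sign of the brighter probe. Retinoic acid lay below IL-1α by -1.28 on the log2 scale (SE 0.327, adjusted p = 0.00909), against -0.15 (adjusted p = 0.442) on the brighter probe, so the Tgfbr2 probes disagreed there.

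Tgfbr3, betaglycan, did not pass the test on its brighter probe. It read 10.02, 9.53, 10.73 and 11.30 untreated, 9.74, 9.61, 11.08 and 11.11 with IL-1α, and 9.61, 9.55, 11.15 and 11.19 with retinoic acid. The change was -0.02 with retinoic acid (95% interval -0.31 to 0.27) and -0.01 with IL-1α (95% interval -0.31 to 0.28). The dimmer probe (ILMN_1241609), detected on 7 arrays, rose by 0.64 with retinoic acid (SE 0.172, adjusted p = 0.01074), by 0.87 in batch 1 and by 0.41 in batch 2 (adjusted p = 0.1783 in a fit of batch 2 alone). The call over both batches was lost without untreated replicate 1 or retinoic acid replicate 1 of batch 1.

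The latency proteins held the largest changes. Ltbp3, which binds latent TGF-β for secretion and storage in skeletal tissue, rose with retinoic acid on each of its 4 probes. On the brightest (ILMN_2776619) the untreated arrays read 11.10, 11.31, 11.33 and 11.45, those with IL-1α 11.38, 11.43, 11.76 and 11.61, and the retinoic acid arrays 12.46, 12.40, 12.69 and 12.80. All retinoic acid arrays were above all others, in both batches. The change was 1.29 (SE 0.111, adjusted p = 1.277e-06, exact permutation p = 0.02857), with 1.23 in batch 1 and 1.36 in batch 2. Retinoic acid exceeded IL-1α by 1.05 (SE 0.111, adjusted p = 9.754e-06), and IL-1α lay 0.25 above untreated (95% interval 0.01 to 0.49, adjusted p = 0.1139).

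The other 3 Ltbp3 probes rose with retinoic acid by 1.32 (ILMN_1220185, adjusted p = 5.899e-06), by 1.58 (ILMN_2608746, adjusted p = 2.466e-06) and by 1.33 (ILMN_1243018, adjusted p = 0.0001158). The 4 probes thus agreed on the treatment while they disagreed on the batches: batch 2 minus batch 1 was 0.26 on the brightest, 2.39 on ILMN_1220185, 1.16 on ILMN_2608746 and -0.81 on ILMN_1243018. With IL-1α, ILMN_2608746 passed the test at 0.56 (SE 0.146, adjusted p = 0.0118) and the others did not. That call was lost without untreated replicate 1 or IL-1α replicate 1 of batch 1, and in a fit of batch 2 alone (adjusted p = 0.2114). On ILMN_1243018 the IL-1α effect was -0.38 in batch 1 and 0.67 in batch 2, a difference of 1.06 (SE 0.24, adjusted p = 0.02222).

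**Figure D3:**
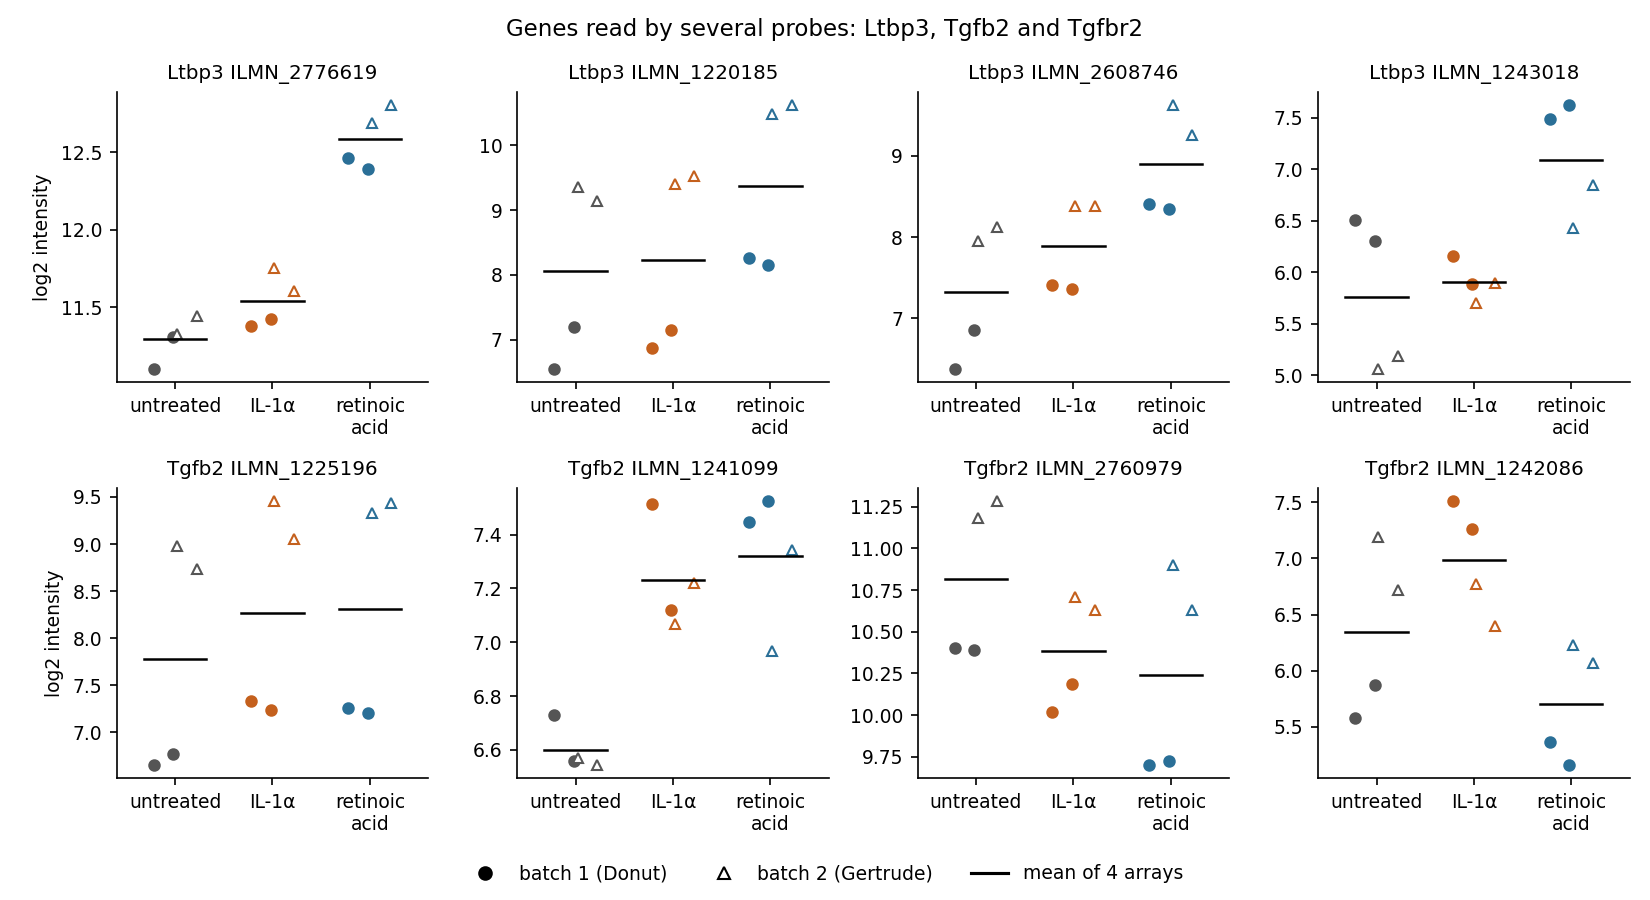
Log2 intensity on the 12 arrays for the 4 probes of Ltbp3 and the 2 tested probes each of Tgfb2 and Tgfbr2, with batch 1 as filled circles, batch 2 as open triangles and the mean of 4 arrays as a line. All 4 Ltbp3 probes are higher with retinoic acid within each batch, and the second Tgfbr2 probe is high with IL-1α in batch 1 and not in batch 2.

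Ltbp2, which does not bind latent TGF-β itself and sits on fibrillin microfibrils, rose with IL-1α. The untreated arrays read 10.55, 10.52, 10.20 and 10.39, those with IL-1α 11.69, 11.71, 12.19 and 12.12, and the retinoic acid arrays 10.46, 10.35, 10.80 and 10.48. The lowest IL-1α array, at 11.69, was above the highest of the others, at 10.80. The change with IL-1α was 1.51 (SE 0.151, adjusted p = 1.263e-05, exact permutation p = 0.02857), with 1.17 in batch 1 and 1.86 in batch 2, and that difference between batches did not pass the test (0.69, SE 0.209, adjusted p = 0.07381). With retinoic acid it was 0.11 (95% interval -0.22 to 0.43, adjusted p = 0.6275), and retinoic acid lay below IL-1α by -1.40 on the log2 scale (SE 0.151, adjusted p = 1.058e-05). RefSeq lists Ltbp2 as an older name of Ltbp3, and the symbols of the array were used here. The Ltbp2 probe, the only 1 of 3 that was detected, was called with IL-1α. The 4 Ltbp3 probes were called with retinoic acid, and 1 of them (ILMN_2608746) with IL-1α as well.

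Ltbp4, a binding protein of elastic fibres that carries TGF-β1, fell with both treatments, close to the limit of detection. The untreated arrays read 6.26, 6.55, 6.69 and 6.50, those with IL-1α 5.31, 4.87, 5.54 and 5.10, and the retinoic acid arrays 5.32, 5.19, 5.70 and 6.14. Every treated array was below every untreated array, and the probe was detected on 4 untreated, 2 IL-1α and 2 retinoic acid arrays. The change was -1.30 with IL-1α (SE 0.17, adjusted p = 0.0001173) and -0.91 with retinoic acid (SE 0.17, adjusted p = 0.0009836), each with an exact permutation p of 0.02857. Within batches it was -1.31 and -1.28 with IL-1α and -1.15 and -0.68 with retinoic acid. The treatments lay 0.38 apart (95% interval 0.01 to 0.75, adjusted p = 0.1098). Its second probe (ILMN_2708681) was detected on 3 arrays, 1 per treatment, and was not tested. It did not show the fall: the untreated arrays read 4.65, 4.88, 5.20 and 4.76, those with IL-1α 5.29, 5.75, 4.88 and 4.90, and the retinoic acid arrays 4.67, 4.97, 4.81 and 5.05, with IL-1α 0.76 above untreated in batch 1 and -0.09 from it in batch 2.

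Ltbp1, the founding member of the family, did not pass the test. It read 7.13, 7.56, 7.74 and 7.77 untreated, 7.22, 6.92, 7.60 and 7.43 with IL-1α, and 7.42, 7.11, 7.86 and 7.37 with retinoic acid. The change was -0.11 with retinoic acid (95% interval -0.41 to 0.20) and -0.26 with IL-1α (95% interval -0.56 to 0.05). A second, dim probe (ILMN_2765452, detected on 8 arrays) did not pass the test either, at 0.15 with retinoic acid and 0.34 with IL-1α.

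Whether a treatment acted differently in the batches was tested with treatment by batch terms. Of the 10 genes, 0 differed for retinoic acid against untreated, beside 2.70% of all genes, and 0 for IL-1α against untreated, beside 4.57%. For retinoic acid against IL-1α 1 differed, beside 8.91%: Tgfb3, with a difference of 0.87 between batch 2 and batch 1 (SE 0.255, adjusted p = 0.04673).

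The genes whose 12 values, less their batch means, followed those of Ltbp2, Ltbp4 and Ltbp3 most closely were listed as a description. For Ltbp2 they were D030056L22Rik and Steap4 (Pearson r = 0.986 each) and Cd44, a hyaluronan receptor (r = 0.979). For Ltbp4 they were Lingo1 (r = 0.968), Nrarp (r = 0.962) and Ccdc3 (r = 0.953), and for Ltbp3 Twist1 and Hsd17b7 (r = 0.991 each) and Gata6 (r = 0.990). The 12 arrays share the 3 treatments, so any gene with the same order of treatments correlates highly.

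The rest of the pathway was read from 72 listed genes, of which 64 were on the array by symbol and 49 had a tested probe. Retinoic acid changed 30 of 49 against untreated, 15 higher and 15 lower, beside 36.7% of all genes, and IL-1α changed 22, 9 higher and 13 lower, beside 30.2%. The median size of change was 0.61 with retinoic acid and 0.36 with IL-1α, beside 0.28 and 0.25 over all genes. Retinoic acid and IL-1α differed in 28, 10 higher and 18 lower with retinoic acid, beside 32.5%.

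Of 6 tested co-receptors and pseudoreceptors, 4 changed with retinoic acid, 3 higher and 1 lower, beside 36.7% of all genes. With IL-1α 1 changed, beside 30.2%. Eng, a co-receptor of endothelial cells, rose by 1.22 with retinoic acid (SE 0.117, adjusted p = 3.632e-06). Its retinoic acid arrays read 8.61, 8.51, 8.02 and 8.07 and its untreated arrays 7.14, 7.42, 6.99 and 6.79, with no overlap. The endothelial markers given above, 1 of 6 higher, had a summed linear level of 1840 to 2280 untreated and 2030 to 2410 with retinoic acid. Cd109, a co-receptor that damps TGF-β signalling, fell by 1.88 (SE 0.138, adjusted p = 2.975e-07), from 9.62, 9.77, 10.01 and 9.85 to 7.77, 7.62, 8.25 and 8.08. With IL-1α the largest change called was Lrp1, an endocytic receptor, at 0.45 (SE 0.13, adjusted p = 0.02127), and the largest fall was Cd109 at -0.33 (adjusted p = 0.09173).

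Of genes that store or release latent TGF-β, 10 of 15 tested changed with retinoic acid, 6 higher and 4 lower, beside 36.7% of all genes, and 6 with IL-1α, 1 higher and 5 lower, beside 30.2%. The 3 metalloproteinases of the list rose with retinoic acid: Mmp14, a membrane metalloproteinase, by 2.07 (SE 0.17, adjusted p = 8.412e-07), Mmp9 by 1.58 (SE 0.141, adjusted p = 1.823e-06) and Mmp2 by 1.01 (SE 0.156, adjusted p = 0.0002335). Mmp9 also rose with IL-1α, by 0.61 (adjusted p = 0.006031), the largest rise of the list. Osteoclast markers moved with these genes, 2 of 2 tested higher with retinoic acid and 1 with IL-1α. Of 6 macrophage markers 5 were higher with retinoic acid, but with IL-1α 2 were higher and 3 lower, although their sum rose. The osteoclast markers, of which Acp5 and Ctsk were tested and Calcr was detected on 0 arrays, summed to 1710 to 5020 untreated, 3490 to 5320 with IL-1α and 2910 to 7280 with retinoic acid on the linear scale. The macrophage markers summed to 1880 to 3470, 3760 to 6800 and 3510 to 6130, and the part of these cells in the rise was not tested. Matrix proteins fell by more than 1 with retinoic acid: Emilin1 by 1.70 (SE 0.128, adjusted p = 3.51e-07), Fbln2 by 1.31 (SE 0.181, adjusted p = 9.193e-05) and Fbn1, the fibrillin to which the binding proteins attach, by 1.05 (SE 0.112, adjusted p = 9.238e-06). Fbln1, a fibulin of basement membranes and elastic fibres, moved in opposite directions. It rose by 1.72 with retinoic acid (SE 0.164, adjusted p = 3.532e-06) and fell by 1.55 with IL-1α (SE 0.164, adjusted p = 2.133e-05). Its arrays read 9.37, 9.08, 7.36 and 7.67 untreated, 7.52, 7.40, 6.12 and 6.24 with IL-1α, and 10.46, 10.55, 9.59 and 9.75 with retinoic acid.

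Of 3 tested small proteoglycans that bind TGF-β, 2 changed with retinoic acid, both lower, beside 36.7% of all genes. With IL-1α 1 changed, beside 30.2%. Fmod fell by 2.88 (adjusted p = 3.07e-07), a size limited by background, since 2 of its 4 retinoic acid arrays, at 4.64 and 4.67, were not detected, and Bgn fell by 1.18 (SE 0.133, adjusted p = 1.697e-05). With IL-1α Fmod fell by 0.62 (adjusted p = 0.04369), and Bgn lay 0.27 above untreated (adjusted p = 0.1439). Both are cartilage matrix genes, and the fall of chondrocyte markers with retinoic acid given above stands beside them. The remaining gene, Dcn, changed by -0.24 with retinoic acid (adjusted p = 0.1376).

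Of 4 tested SMAD transducers and co-factors, 1 changed with retinoic acid, beside 36.7% of all genes: Smad3 rose by 0.71 (SE 0.142, adjusted p = 0.001546). With retinoic acid Smad2 changed by -0.01 (adjusted p = 0.96), and the largest downward value was Zfyve9, the SARA anchor of SMADs, at -0.24 (adjusted p = 0.1877). With IL-1α 1 was called, beside 30.2% of all genes, Crebbp at -0.51 (SE 0.141, adjusted p = 0.01569), and no transducer lay above 0. Crebbp read 4.73, 4.88, 6.58 and 5.83 untreated and 4.59, 4.58, 5.73 and 5.09 with IL-1α. The lowest detected value of an array lay between 4.86 and 5.48, so background limits its size of change, above all in batch 1. Of 5 tested inhibitors, 2 changed with each treatment, beside 36.7% of all genes with retinoic acid and 30.2% with IL-1α. Tgif1, a SMAD co-repressor, rose by 1.51 with IL-1α (SE 0.164, adjusted p = 2.591e-05) and by 0.83 with retinoic acid (SE 0.164, adjusted p = 0.001483). The lowest inhibitor values were Ppm1a at -0.13 with retinoic acid (adjusted p = 0.4553) and Ski at -0.24 with IL-1α (adjusted p = 0.1945), both short of the test. Smad7, the feedback inhibitor, was detected on 0 arrays.

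Genes known as TGF-β targets changed in both directions. Retinoic acid changed 12 of 17 tested, 3 higher and 9 lower, beside 36.7% of all genes, and IL-1α changed 11, 5 higher and 6 lower, beside 30.2%. Tgfbi, a matrix protein named for its induction by TGF-β, fell by 2.19 with retinoic acid (SE 0.161, adjusted p = 2.947e-07) and by 1.34 with IL-1α (SE 0.161, adjusted p = 5.701e-05). Its 4 untreated arrays read 10.90, 10.90, 10.95 and 11.38, those with IL-1α 9.63, 9.69, 9.73 and 9.72, and its retinoic acid arrays 8.45, 8.51, 9.40 and 9.01, in 3 separate bands. Timp3, a metalloproteinase inhibitor, fell by 1.43 with retinoic acid (SE 0.108, adjusted p = 3.709e-07).

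The fibrillar collagens of the target list fell as well. Col3a1 fell by 1.94 with retinoic acid and by 1.88 with IL-1α (SE 0.21 each, adjusted p = 1.1e-05 and 3.248e-05), and was detected on 2 of 4 arrays of each treatment, so that background limits these sizes. Col1a2 fell by 1.16 and by 1.32 (SE 0.167 each, adjusted p = 0.0001331 and 8.786e-05). Col1a1 fell by 0.61 with retinoic acid (adjusted p = 0.02248) and by 1.05 with IL-1α (SE 0.187, adjusted p = 0.001131). Acta2, smooth muscle actin, fell by 1.17 with IL-1α (SE 0.208, adjusted p = 0.00113) and lay 0.51 above untreated with retinoic acid (adjusted p = 0.07457). Osteoblast markers moved alongside, with 3 of 4 measured lower with each treatment, and Col1a1 belongs to both lists. Over all genes 18.1% were lower with retinoic acid and 15.0% with IL-1α. Synovial and fibroblast markers moved as well: Thy1 lay -1.25 from untreated with IL-1α and -0.72 with retinoic acid, and Pdgfra -0.88 and 0.95. Their summed linear level was 1120 to 1510 untreated, 570 to 700 with IL-1α and 1380 to 3190 with retinoic acid, and the part of these cells in the collagen values was not tested.

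Other targets rose. Tsc22d1, a TGF-β-stimulated transcriptional regulator, rose by 1.98 with retinoic acid (SE 0.187, adjusted p = 3.092e-06) and by 2.17 with IL-1α (SE 0.187, adjusted p = 3.449e-06). Its untreated arrays read 10.18, 10.48, 12.06 and 11.58, and its treated arrays lay between 12.35 and 13.79. Junb, an AP-1 subunit, rose by 1.42 with IL-1α (SE 0.12, adjusted p = 2.847e-06) and by 0.73 with retinoic acid (adjusted p = 0.0003903). Klf10 and Postn, also known targets, were detected on 0 arrays.

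**Figure D4:**
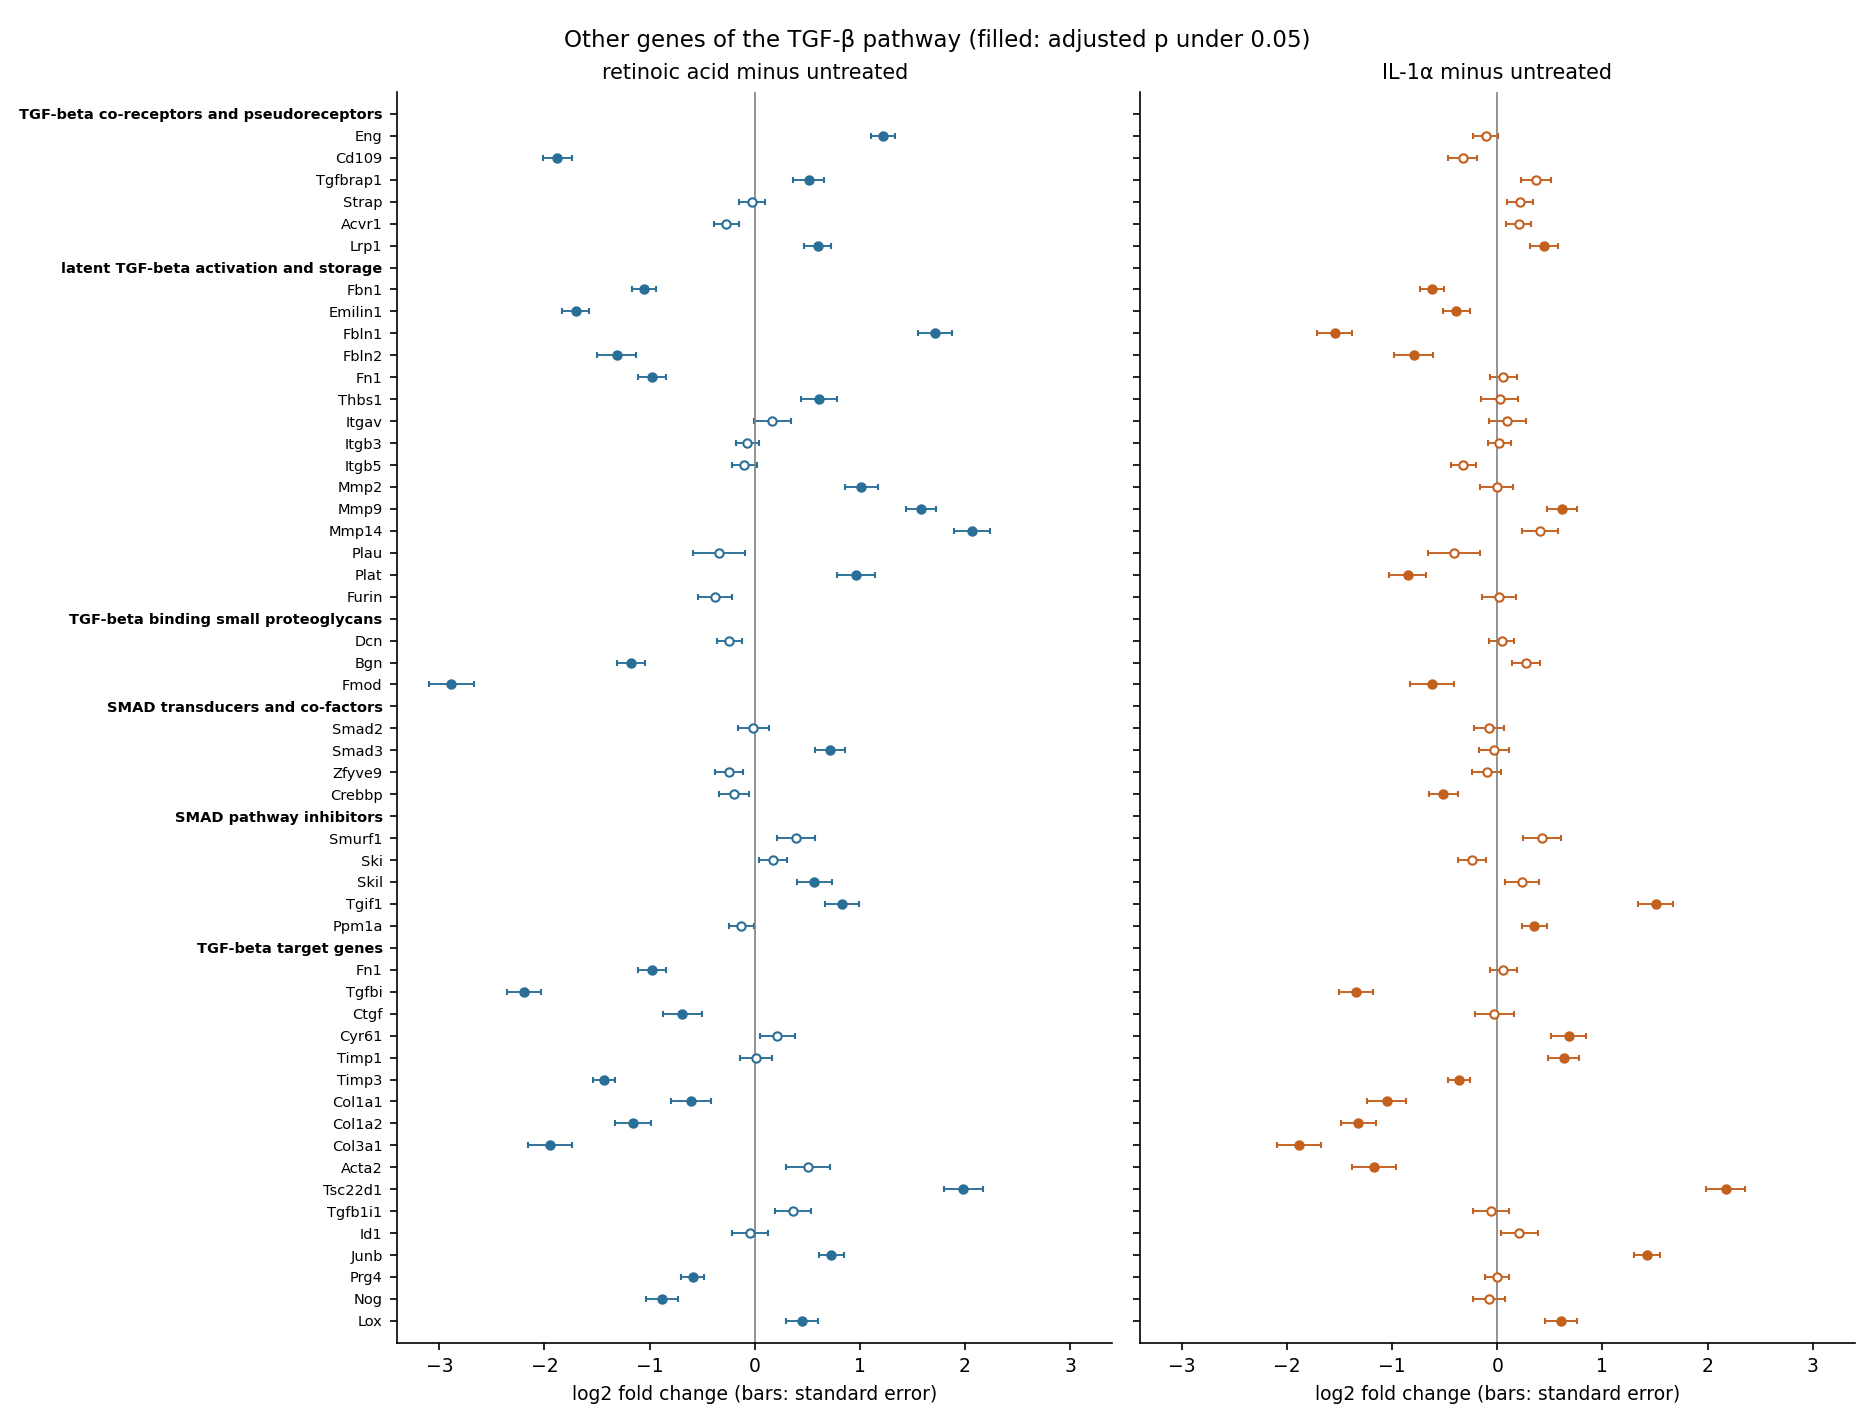
Log2 fold change against untreated, with bars for the standard error, of the tested genes in the 6 lists of other TGF-β pathway genes, for retinoic acid (left) and IL-1α (right), filled where the adjusted p was under 0.05. Fbln1 is at 1.72 on the left and -1.55 on the right, and Tsc22d1 is near 2 on both. Fn1 belongs to 2 lists and appears in both.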

How the data were processed

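The authors deposited a single table of probe intensity values on a linear scale, neither background-corrected nor normalized, with a second value per bead type that is a detection p-value per the file headers. This deposited fraction rose with intensity, against its name, so it was read as a score, and 1 less it served as the detection p. The bead-level software is not given in the sources used here.

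In R 4.3.3 with limma 3.58.1, neqc estimated background from the detection p, added an offset of 16, quantile-normalized and took log2. The filter asked for detection at p under 0.05 on 4 or more of the 12 arrays and left 18200 of 46632 probes, for 14317 symbols. Between 13786 and 19485 probes were detected per array, and the number of arrays limits the precision. lmFit and eBayes fitted treatment plus 1 factor of 4 levels that joins batch and replicate, and p-values were adjusted by Benjamini-Hochberg over 18200 probes. The study's methods name a factor for batch and biological replicates, and joining them in 4 levels was a choice made here. A second fit had treatment by batch terms. Single values had a two-sided exact permutation test. A gene is shown by its brightest kept probe.

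The members and lists were chosen with earlier results of these data known. All 10 members are named, as are pathway genes called with a log2 change of at least 1, the largest change of each list either way, and the 3 genes most like each of the 3 members of widest range. Promoters came from RefSeq on GRCm38.p6. Alternatives changed the background correction, normalization, offset, filter, array weights, block and batch, averaged the kept probes of each gene, or left out arrays. Some listed genes are not reported here.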

Additional observations from a re-analysis of the deposited data

Results flagged for a closer look

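In 3 of 54 groups of 4 arrays 1 array lay far from the others, where chance gives about 1 group in 20. For the second Tgfb2 probe (ILMN_1241099) it was untreated replicate 1 of batch 1, whose gap to the nearest array was 0.862 of the range of the group. For Tgfbr1 (ILMN_2602711) it was untreated replicate 1 of batch 2, at a ratio of 0.8655. For the dim Ltbp1 probe (ILMN_2765452) it was retinoic acid replicate 1 of batch 1, at a ratio of 0.9003.

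In 4 of 54 tests a treatment effect differed between the batches. Over all genes it differed in 2.70% for retinoic acid against untreated, 4.57% for IL-1α against untreated and 8.91% for retinoic acid against IL-1α. Tgfbr2 on ILMN_1242086 did so in 2 of them, which use the same IL-1α arrays and so are not independent. Its change with IL-1α against untreated was -2.03 on the log2 scale in batch 2 relative to batch 1. Its difference of retinoic acid from IL-1α was 1.68 in batch 2 relative to batch 1. Ltbp3 on ILMN_1243018 changed with IL-1α by 1.06 more in batch 2 than in batch 1. For Tgfb3 the difference of retinoic acid from IL-1α was 0.87 larger in batch 2.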

How the results depend on the processing

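No log2 fold change of the 18 tested probes that passed the test turned direction in any alternative, and the calls of Ltbp2 with IL-1α, of Ltbp3 (brightest probe) and Ltbp4 with retinoic acid, of Ltbp4 with IL-1α and of the second Tgfb2 probe with both were kept in all of those that fitted their probe over both batches. The Ltbp4 probe was not among those detected on all 12 arrays. Under that filter, retinoic acid and IL-1α each changed 4 of the remaining genes, beside 4861 and 4053 of all 11215 probes. The genes called numbered 5 for retinoic acid, 5 for IL-1α and 4 between the treatments. Without batch or replicate block they numbered 2, 3 and 2, and pathway genes called fell from 30, 22 and 28 to 18, 8 and 15. Over all 18200 probes, calls fell alongside from 6436, 5334 and 5656 to 2215, 1327 and 1984. With batch but no replicate block the counts stayed at 5, 5 and 4, and no call of the 18 tested probes changed. Over all 18200 probes, 6752, 5702 and 5938 were then called. The deviations of same-numbered arrays within a batch correlated between -0.108 and 0.391. With 2 arrays per treatment and batch, this cannot settle whether the replicate numbers pair the arrays. Scaling to one median, which moved the median of all probes to 0.136 for retinoic acid against untreated, gave 2 for IL-1α, without the calls of Tgfb2, Tgfb3 and Tgfbr2. With that scaling, IL-1α changed 3104 of all 18200 probes. Without a filter 2 differed between the treatments, and within batch 2 alone retinoic acid changed 3. Over all probes these were 4834 of 46632 without a filter and 5239 of 18200 within batch 2. Leaving out each array gave 2 to 4 between the treatments, with 2 without IL-1α replicate 2 or retinoic acid replicate 1 of batch 2. In those 2 fits, 5096 and 4830 of all 18200 probes differed between the treatments. The call of Tgfb3 between the treatments was lost without any 1 of the 4 treated arrays of batch 2 (largest adjusted p 0.075). With the mean of all kept probes of a gene in place of the brightest, retinoic acid changed 5 genes and IL-1α 4. Between the treatments 4 then differed, 2 higher and 2 lower with retinoic acid. Over all 14317 genes these counts were 5342, 4364 and 4688. Genes whose effect differed between the batches numbered 1, and 2 without background correction, 2 with scaling to one median, 2 with an offset of 50, 0 with normalization within each batch, 0 without a filter and 0 to 2 on leaving out each array. The cause was not tested. Signal over background limits Ltbp4, Fmod, Col3a1, Crebbp and the dim probes of Tgfbr1, Tgfbr3 and Ltbp1.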
